A study of Mus musculus with 12 samples.

Results

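Granule proteins are the antimicrobial enzymes and peptides that neutrophils and their bone marrow progenitors pack into storage vesicles. The 10 genes described here were chosen by name: *Mpo*, *Elane*, *Prtn3*, *Ctsg*, *Ngp*, *Camp*, *Ltf*, *Lyz1*, *Lyz2* and *Chil3*. All 10 were among the 53819 genes of the deposited count files. Of these 10 genes, 7 were among the 13151 genes with enough reads to test, and *Mpo*, *Elane* and *Ctsg* were not. The cells were monocytes from the bone marrow of WT (wild-type) C57Bl6J mice, and their RNA was sequenced in 4 groups of 3 libraries. Untreated cells received neither agent. The platelet group was kept overnight with platelets and washed, the LPS group received lipopolysaccharide (LPS, a cell wall component of Gram-negative bacteria), and the last group received platelets overnight, a wash and then LPS. Strain, genotype and tissue are labelled the same in all 4 groups. Neither the doses nor the duration of LPS treatment was given in the sources used here. Nothing in the labels tells whether replicate libraries stem from different mice or cultures. The p-values therefore measure a spread between libraries that may be technical.

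Granule proteins are made in order as granulocytes mature. The azurophil granules form first, at the promyelocyte stage, and hold myeloperoxidase (Mpo) and the serine proteases neutrophil elastase (Elane), proteinase 3 (Prtn3) and cathepsin G (Ctsg). The specific granules form later and hold lactoferrin (Ltf), cathelicidin (Camp) and neutrophilic granule protein (Ngp). Lysozyme, which cuts the bacterial cell wall, occurs in several granule types and is also secreted by monocytes and macrophages. Chil3 (Ym1) is a chitinase-like lectin made by myeloid cells.

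The total counts were 20060867 to 32155727 per library, so that 3 reads corresponded to 0.0854 to 0.163 CPM (reads scaled to a library size of 1000000). Platelet replicate 1 held 0.886% mitochondrial reads against 0.431 to 0.600% in the other 11 libraries, and its description field reads "Control" although its title and its treatment label both say platelets. Some results are also given without it. The sums of 12 monocyte markers were 34610 to 44820 CPM over all libraries, and *Lyz2* is among these markers. The 12 markers of mature neutrophils summed to 216 to 405 CPM. Most of that sum was *Mmp8*, while *Stfa2l1* had no read in any library and *Ly6g* had 0 to 7 reads. The 12 markers of myeloid progenitors summed to 352.5 to 392.4 CPM in untreated cells and to 838 to 857 CPM with LPS, mostly from *Gstm1* and *Clec12a*. The progenitor markers *Ms4a3* and *Prss57* had 0 to 7 and 0 to 5 reads per library.

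The results turn on the lysozyme pair, so their sequences are shown first. Mice carry neighbouring lysozyme genes on chromosome 10, and the reads of the near-identical copies can be hard to assign. The first 300 bases of the coding sequences of GENCODE M21 are printed, with the bases that differ in capitals.
Lyz1: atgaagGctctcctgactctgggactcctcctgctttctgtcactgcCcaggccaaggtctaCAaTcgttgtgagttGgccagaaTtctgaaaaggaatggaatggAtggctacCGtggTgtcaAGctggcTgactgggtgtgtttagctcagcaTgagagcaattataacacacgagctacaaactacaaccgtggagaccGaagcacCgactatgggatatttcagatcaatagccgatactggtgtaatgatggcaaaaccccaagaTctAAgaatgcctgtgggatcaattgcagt
Lyz2: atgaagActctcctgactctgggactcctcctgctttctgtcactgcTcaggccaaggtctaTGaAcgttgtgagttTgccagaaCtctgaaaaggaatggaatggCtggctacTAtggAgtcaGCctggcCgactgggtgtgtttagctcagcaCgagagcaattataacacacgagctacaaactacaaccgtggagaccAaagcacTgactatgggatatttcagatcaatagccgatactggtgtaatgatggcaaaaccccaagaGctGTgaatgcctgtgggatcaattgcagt
Of these 300 bases 20 differed. Each whole coding sequence had 444 bases without the stop codon, of which 22 differed. Over the whole transcripts, of 1263 and 1316 bases, 92.0% were identical. Of all windows of the *Lyz1* transcript, 16.1% of those of 50 bases and 2.06% of those of 100 bases occurred unchanged in *Lyz2*. Reads from such stretches cannot be assigned to 1 gene, and neither the read length nor the treatment of shared reads was given in the sources used here.

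The sequences before the start sites of the lysozyme genes are shown because both genes were measured higher after platelets. The windows cover 250 to 51 bases before the start given by RefSeq on GRCm38.p6, at chr10:117292919-117293118 for *Lyz1* and chr10:117282323-117282522 for *Lyz2*, both on the minus strand. Capitals mark matches to TTGCNNAA, a motif of the C/EBP transcription factors, searched on both strands.
Lyz1: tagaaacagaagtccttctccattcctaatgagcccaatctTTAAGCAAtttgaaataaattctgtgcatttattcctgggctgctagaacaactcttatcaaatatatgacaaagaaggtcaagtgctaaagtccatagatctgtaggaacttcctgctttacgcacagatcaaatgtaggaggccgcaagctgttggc
Lyz2: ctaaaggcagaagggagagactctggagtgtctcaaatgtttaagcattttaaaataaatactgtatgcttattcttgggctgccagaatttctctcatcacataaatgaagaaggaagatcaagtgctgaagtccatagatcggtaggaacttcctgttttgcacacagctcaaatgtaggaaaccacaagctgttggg
These windows were 74.3% identical over 202 aligned positions. The window of *Lyz1* held a C/EBP match, on the strand opposite to the printed one, and that of *Lyz2* held none. In the 250 bases before the start, 3 of the 10 genes held a C/EBP match (*Ngp*, *Ltf* and *Lyz1*), against 9.56% of 32851 RefSeq promoters. GAGGAA, a motif of the factor PU.1, was found in 5 of the 10 genes (*Mpo*, *Elane*, *Prtn3*, *Ctsg* and *Ltf*), against 23.3% of promoters. *Elane*, *Prtn3*, *Mpo* and *Ctsg*, the 4 azurophil genes, all had this match. A match is a description of the letters and does not show that a factor binds.

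Levels of the 10 genes spanned several orders of magnitude. Scaled to the longest coding transcript of GENCODE M21, *Lyz2* averaged 23690 CPM per kilobase in untreated cells. *Lyz1* followed at 33.7 CPM per kilobase, *Chil3* at 10.6, *Ngp* at 3.53, *Camp* at 1.47 and *Ltf* at 0.647. The azurophil genes were lowest, with *Prtn3* at 0.283, *Elane* at 0.0831, *Ctsg* at 0.0700 and *Mpo* at 0.0255 CPM per kilobase. Among neighbours in this order, *Camp* and *Ltf* overlapped between untreated libraries, as did *Prtn3* with *Elane*, *Elane* with *Ctsg* and *Ctsg* with *Mpo*. *Lyz2*, *Lyz1* and *Chil3* held the first 3 places in all 4 groups. With platelets and then LPS, *Camp* averaged 5.53 and *Ngp* 4.91 CPM per kilobase, and these overlapped.

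**Figure D1:**
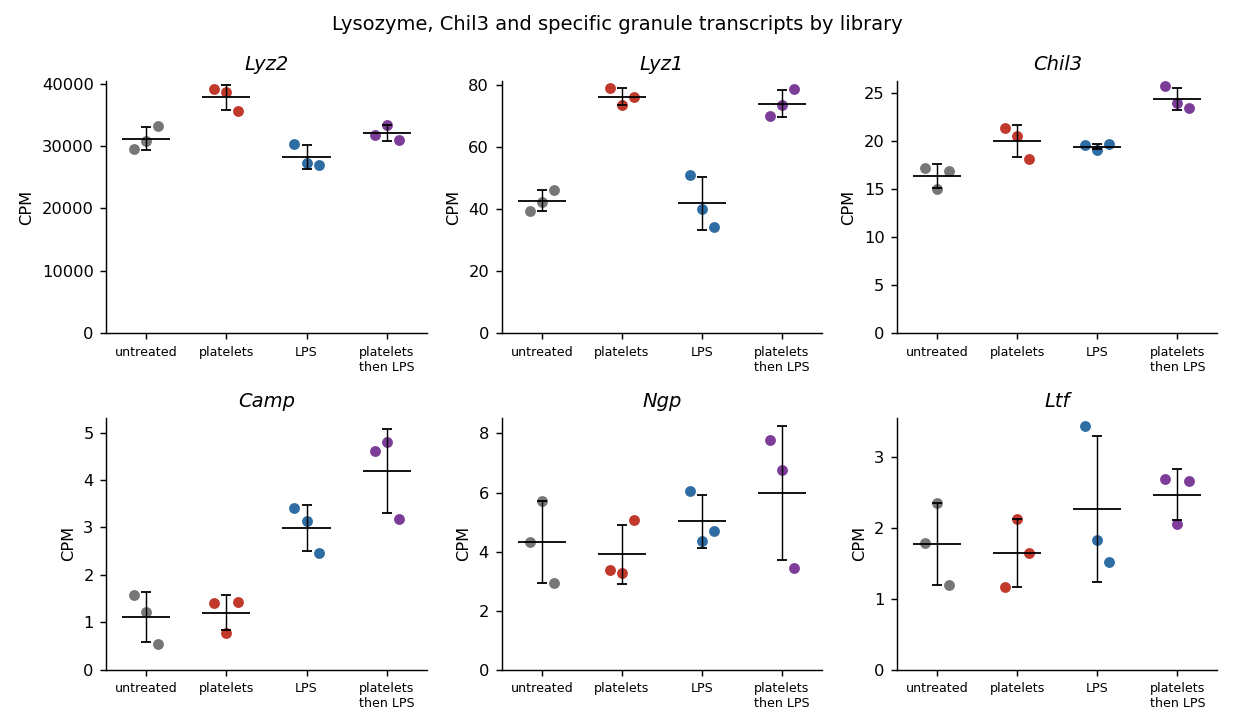
Levels of the lysozyme genes, *Chil3* and the specific granule genes, in CPM on a linear axis that starts at 0. Each point is a library, the horizontal line is the mean of 3 and the bars are ± 1 SD. The 6 platelet-exposed libraries lie above all 6 others for *Lyz1*, and the 6 LPS-treated libraries lie above all 6 others for *Camp*.

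The first question was whether overnight platelets changed granule transcripts. The lysozyme genes rose and the specific granule genes did not pass the test. By edgeR's quasi-likelihood test, *Lyz1* and *Lyz2* were higher after platelets, 2 of the 7 genes tested, and 0 were lower. Over all genes tested, 6.49% were called in either direction, 3.63% higher and 2.86% lower. In bulk RNA, fewer cells of a type and less RNA per cell cannot be told apart. The median log2 change of the 7 genes was 0.28, against 0.00 over all genes tested. *Chil3* joined them at an unadjusted p under 0.05, which gave 3 higher and 0 lower. No share of all genes was counted at that threshold, here or in the comparisons and lists below. Such unadjusted counts therefore have no background to be read against. DESeq2 called 3 higher and 0 lower, and limma-voom called 2 higher and 0 lower.

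*Lyz1* encodes the lysozyme best known from Paneth cells of the gut. It had 39.4, 42.2 and 46.1 CPM in the untreated libraries and 78.9, 73.6 and 75.9 CPM after platelets. All platelet libraries were above all untreated ones. The mean was 42.6 ± 3.40 CPM (SD, n = 3) without and 76.1 ± 2.66 CPM (SD, n = 3) with platelets. The fitted change was 1.79-fold (log2 0.84, SE 0.12, adjusted p = 0.000437 by edgeR). Leaving out each of the 12 libraries in turn gave log2 0.79 to 0.90.

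*Lyz2*, the lysozyme of macrophages and other myeloid cells, took 3.43 to 3.75% of all reads in untreated cells and had the most reads of any gene in each of the 6 libraries without LPS. It had 29500, 30800 and 33220 CPM in the untreated libraries and 39200, 38650 and 35580 CPM after platelets, with no overlap. The means were 31170 ± 1890 CPM and 37810 ± 1949 CPM (SD, n = 3 each). The fitted rise was 1.21-fold (log2 0.28, SE 0.06, adjusted p = 0.0163 by edgeR). The call was lost without untreated replicate 1 (adjusted p = 0.0902), untreated replicate 2 (0.0812) or platelet replicate 2 (0.0590), and it was kept without platelet replicate 1 (0.00473).

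*Chil3* had 17.2, 14.96 and 16.9 CPM in untreated cells and 21.4, 20.6 and 18.2 CPM after platelets. The groups did not overlap, yet the log2 difference of 0.29 (95% interval 0.07 to 0.51) did not pass (adjusted p = 0.118 by edgeR). Over all genes tested, 12.5% had platelet libraries that all lay above the untreated ones. *Lyz1*, *Lyz2*, *Chil3* and *Prtn3* did so among the 7 tested. For *Prtn3* the groups nearly touched, at 0.421 CPM for the highest untreated and 0.422 CPM for the lowest platelet library. It passed the filter on low counts through the platelet group, so its place among them is no support.

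The specific granule genes had low levels in these comparisons. *Camp* had 1.58, 1.23 and 0.544 CPM in untreated cells and 1.41, 0.781 and 1.42 CPM after platelets (log2 0.11, 95% interval −0.67 to 0.89). *Ngp* ranged from 2.92 to 5.71 CPM untreated and from 3.28 to 5.06 CPM after platelets (log2 −0.14, interval −0.79 to 0.51). *Ltf* ranged from 1.19 to 2.35 and from 1.16 to 2.13 CPM (log2 −0.10, interval −0.85 to 0.65). All 3 overlapped between the groups, and their intervals span both rises and falls. The 12 markers of mature neutrophils summed to 379 to 405 CPM untreated and 216 to 254 CPM after platelets. Most of each sum was *Mmp8*, which averaged 342 CPM untreated and 167 CPM after platelets. Of the 8 tested, *Mmp8* was lower, *Trem1* was higher and 6 were not called. The median log2 change of the 8 was 0.48, against 0.00 over all genes tested. The part of neutrophils in these values was not tested.

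The next question was whether platelets changed the same genes in cells that then received LPS. *Lyz1* rose again, and it was the 1 gene of 7 called higher by edgeR, with 0 lower. Over all genes tested, 7.28% were called in either direction, 4.41% higher and 2.87% lower. Taken at an unadjusted p under 0.05, 4 were higher and 0 lower, the others being *Lyz2*, *Chil3* and *Prtn3*. *Prtn3* reached the test through the platelet group, and its reads here were 38, 7 and 7 against 2, 10 and 0. With no filter and without replicate 1 of platelets and LPS, its log2 difference was 0.78 (adjusted p = 0.843 by edgeR). Its place among the 4 is therefore no support. DESeq2 called 2 higher and 0 lower and limma-voom 1 higher and 0 lower. The median log2 difference of the 7 genes was 0.33, against 0.01 over all genes tested.

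*Lyz1* had 51.02, 40.1 and 34.1 CPM with LPS alone and 70.0, 73.3 and 78.4 CPM with platelets and LPS. The lowest library of the second group was above the highest of the first. The means were 41.8 ± 8.56 and 73.9 ± 4.26 CPM (SD, n = 3 each), and the fitted rise was 1.77-fold (log2 0.82, SE 0.12, adjusted p = 0.000559 by edgeR). The platelet changes without and with LPS were therefore 0.84 and 0.82 on the log2 scale. The interaction, which is the difference of these changes, was −0.02 (95% interval −0.38 to 0.34, adjusted p = 0.995 by edgeR).

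*Lyz2* had 30390, 27350 and 27010 CPM with LPS and 31770, 33450 and 30980 CPM with platelets and LPS. The groups did not overlap, and the log2 difference of 0.18 (95% interval 0.05 to 0.32) did not pass (adjusted p = 0.109 by edgeR). *Chil3* had 19.5, 19.1 and 19.7 CPM with LPS and 25.7, 24.0 and 23.5 CPM with platelets and LPS. These groups did not overlap either, and the log2 difference of 0.33 (interval 0.11 to 0.55) did not pass (adjusted p = 0.0726 by edgeR). Without platelet replicate 1, which is in neither group but in the same fit, the adjusted p was 0.0341 for *Lyz2* and 0.0478 for *Chil3*. Over all genes tested, 14.7% had libraries with platelets and LPS that all lay above those with LPS.

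*Lyz1* rose more than *Lyz2*, and the ratio of their reads does not depend on the scaling of the libraries. There were 1.33 to 1.39 *Lyz1* reads per 1000 *Lyz2* reads in untreated cells and 1.90 to 2.13 after platelets. With LPS the ratio was 1.26 to 1.68, and with platelets and LPS it was 2.19 to 2.53. All 6 platelet-exposed libraries were above all 6 unexposed ones. The mean log2 ratio was 0.61 higher with platelets, or 1.53-fold (exact permutation test within the untreated and LPS strata, two-sided, n = 6 and 6, p = 0.005, the smallest that the 400 arrangements can give). This test was chosen after the data were seen. When the reads of *Lyz1* and *Lyz2* were summed, the sum followed *Lyz2*: log2 0.28 (adjusted p = 0.016 by edgeR) without LPS and 0.18 (0.106) with LPS.

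**Figure D2:**
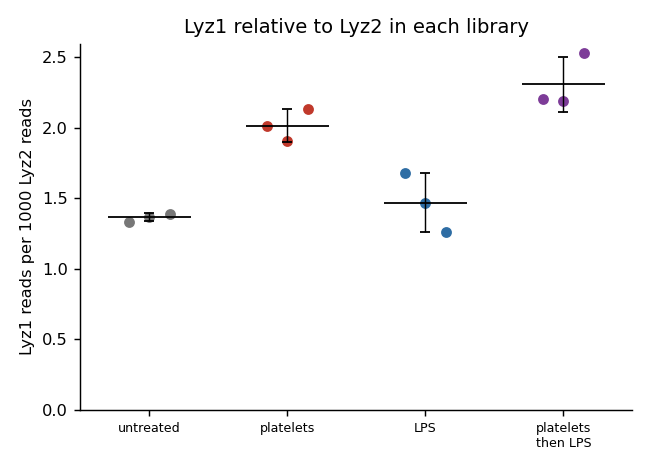
Reads of *Lyz1* per 1000 reads of *Lyz2* in each library, on a linear axis that starts at 0, with the mean of 3 libraries and ± 1 SD. The platelet-exposed libraries, at 1.90 to 2.53, lie above the others, at 1.26 to 1.68.

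Markers of platelets and other cells moved with the platelet groups. Of the 12 platelet and megakaryocyte markers, 10 were tested by edgeR. After platelets 5 were higher and 1 lower, and with platelets and LPS against LPS 7 were higher and 1 lower. Their summed level overlapped between groups, at 3787 to 4494 CPM untreated, 3412 to 6131 after platelets, 3901 to 4715 with LPS and 3641 to 3920 CPM with platelets and LPS. *Pf4*, a platelet chemokine, made up most of the sum in every group. *Gp6* and *Gp1bb*, platelet receptor subunits, had 0 reads in untreated cells, where *Gp9* had 1. After platelets *Gp6* had 69 reads, *Gp9* had 950 and *Gp1bb* had 1. *Ppbp*, of the same list, went the other way. It averaged 242 CPM untreated and 174 CPM after platelets, and 253 CPM with LPS and 140 CPM with platelets and LPS. *Gng11*, a G protein subunit of platelets, had 1.65 to 2.07 CPM untreated and 73.6 to 148 CPM after platelets. The 8 erythroid markers summed to 1.16 to 1.61 CPM untreated and to 11.9 to 24.5 CPM after platelets, with 3 of the 4 tested higher. The 8 basophil and mast cell markers summed to 1.44 to 2.59 CPM untreated and 7.91 to 9.79 CPM after platelets, with 4 of the 5 tested higher. The 8 dendritic cell markers summed to 2.41 to 4.66 and 6.88 to 9.25 CPM, with 3 of the 7 tested higher. *Gp9*, *Gp6* and *Nrgn* had at most 2 reads over the untreated or the LPS libraries, *Hba-a1* at most 21 and *Mcpt8* at most 25. Such markers reached the test through the platelet-exposed groups. The filter thus partly fixed these counts of higher markers, which are no support. The part of platelet RNA or of these other cells in the lysozyme values was not tested.

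The second treatment was LPS. *Camp* rose in both LPS comparisons, while neither lysozyme gene was called higher. By edgeR, LPS against untreated called *Camp* higher, 1 of 7 genes, and 0 lower. Over all genes tested, 50.7% were called in either direction, 27.7% higher and 23% lower, so 1 of 7 is below the background. *Chil3* was also higher and *Lyz2* lower at an unadjusted p under 0.05, which gave 2 higher and 1 lower. DESeq2 called 1 higher and 1 lower, and limma-voom 1 higher and 0 lower. The median log2 change of the 7 genes was 0.22, against 0.01 over all genes tested.

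*Camp* encodes the only cathelicidin of mice. Against 0.544 to 1.58 CPM untreated, it had 3.40, 3.13 and 2.45 CPM with LPS, with no overlap. The means were 1.12 ± 0.53 and 2.99 ± 0.49 CPM (SD, n = 3 each). The fitted rise was 2.69-fold (log2 1.43, SE 0.35, adjusted p = 0.00318 by edgeR). After platelets *Camp* rose from 1.41, 0.781 and 1.42 CPM to 4.62, 4.79 and 3.17 CPM with LPS, again with no overlap, as in 30.2% of all genes tested. This rise was 3.47-fold (log2 1.80, SE 0.35, adjusted p = 0.000427 by edgeR). Both calls were kept when each of the 12 libraries was left out in turn, with log2 1.10 to 1.76 and 1.56 to 1.96. Beside this, 6 of the 10 tested progenitor markers were higher and 3 lower in LPS against untreated. Of the 8 tested neutrophil markers, 3 were higher and 2 lower. The shares of all genes tested were 27.7% higher and 23% lower. *Gfi1*, *Kit*, *Myb* and *Wfdc21* had 1, 3, 13 and 14 reads over the untreated libraries and reached the test through the LPS-treated groups. *Sox4*, *Cebpe* and *Retnlg* had 5, 7 and 4 reads with LPS and reached it through the groups without LPS. The filter thus partly fixed these marker counts, which are no support. The part of such cells in the *Camp* values was not tested.

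The other specific granule genes did not pass with LPS. *Ngp* had 4.31, 5.71 and 2.92 CPM untreated and 6.04, 4.34 and 4.68 CPM with LPS (log2 0.22, 95% interval −0.43 to 0.87). *Ltf* had 1.79, 2.35 and 1.19 CPM untreated and 3.44, 1.83 and 1.53 CPM with LPS (log2 0.37, interval −0.38 to 1.12). Both overlapped between the groups. After platelets, LPS gave *Ngp* a log2 difference of 0.61 (interval −0.03 to 1.26) and *Ltf* one of 0.58 (interval −0.16 to 1.33), and neither passed. Without platelet replicate 3 or without replicate 3 of platelets and LPS, *Ngp* did pass (adjusted p = 0.0494 and 0.0174 by edgeR). The highest *Ngp* value with platelets and LPS was 7.78 CPM and the lowest was 3.44 CPM.

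Among the lysozyme genes, *Lyz2* had 29500 to 33220 CPM untreated and 27010 to 30390 CPM with LPS, and the groups overlapped (log2 −0.14, 95% interval −0.28 to −0.01, adjusted p = 0.0775 by edgeR). Its rank by reads was the second in each of the 6 LPS-treated libraries. After platelets, *Lyz2* was 1.18-fold lower with LPS (log2 −0.24, SE 0.06, adjusted p = 0.00588 by edgeR), from 35580 to 39200 CPM down to 30980 to 33450 CPM. *Lyz1* had log2 differences of −0.03 (interval −0.28 to 0.23) without platelets and −0.04 (interval −0.30 to 0.21) with them.

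LPS against untreated gave *Chil3* a log2 difference of 0.25 (95% interval 0.02 to 0.47, adjusted p = 0.0615 by edgeR), with groups that did not overlap, as in 32.1% of all genes tested. After platelets LPS raised it 1.22-fold (log2 0.28, SE 0.10, adjusted p = 0.0312), from 18.2 to 21.4 CPM up to 23.5 to 25.7 CPM. In that comparison edgeR called 2 of the 7 genes higher, *Camp* and *Chil3*, and 1 lower, *Lyz2*. Over all genes tested, 49.4% were called in either direction, with 27.6% higher and 21.8% lower. The median log2 difference of the 7 genes was 0.28, against 0.02 over all genes tested. The comparison shares the platelet libraries with the platelet comparison above, as the LPS comparisons share the LPS libraries.

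The small LPS changes depended on how libraries were scaled. With library size alone, the median of all genes moved by −0.38 in LPS against untreated and by −0.36 in platelets and LPS against platelets, and with upper-quartile factors by −0.20 and −0.24. *Chil3* in platelets and LPS against platelets then had log2 −0.07 and 0.04 and was no longer called, and *Lyz2* in LPS against untreated had log2 −0.52 and −0.35 and was called lower. *Camp* was called higher with LPS under these scalings as well. In 4 of the 12 fits that left out a library, the *Chil3* call was lost: without platelet replicate 2 (adjusted p = 0.0561 by edgeR) or 3 (0.131), or without replicate 1 (0.114) or 2 (0.0546) of platelets and LPS. *Lyz2* was also called lower with LPS without platelet replicate 1 (adjusted p = 0.0102 by edgeR) or LPS replicate 1 (0.0244).

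The interaction asked whether platelets changed the LPS response. By edgeR, 0 of the 7 genes passed, against 1.58% of all genes tested (0.859% higher and 0.722% lower). None of the 7 had an unadjusted p under 0.05, and both DESeq2 and limma-voom called 0. The values were 0.37 for *Camp* (95% interval −0.68 to 1.42), 0.39 for *Ngp*, 0.21 for *Ltf*, 1.02 for *Prtn3* (−1.41 to 3.45), 0.04 for *Chil3* (−0.27 to 0.35) and −0.10 for *Lyz2* (−0.29 to 0.10). The intervals of the lysozyme genes and *Chil3* were narrow, and those of the other genes were wide. Adjusted p ranged from 0.814 to 0.995.

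**Figure D3:**
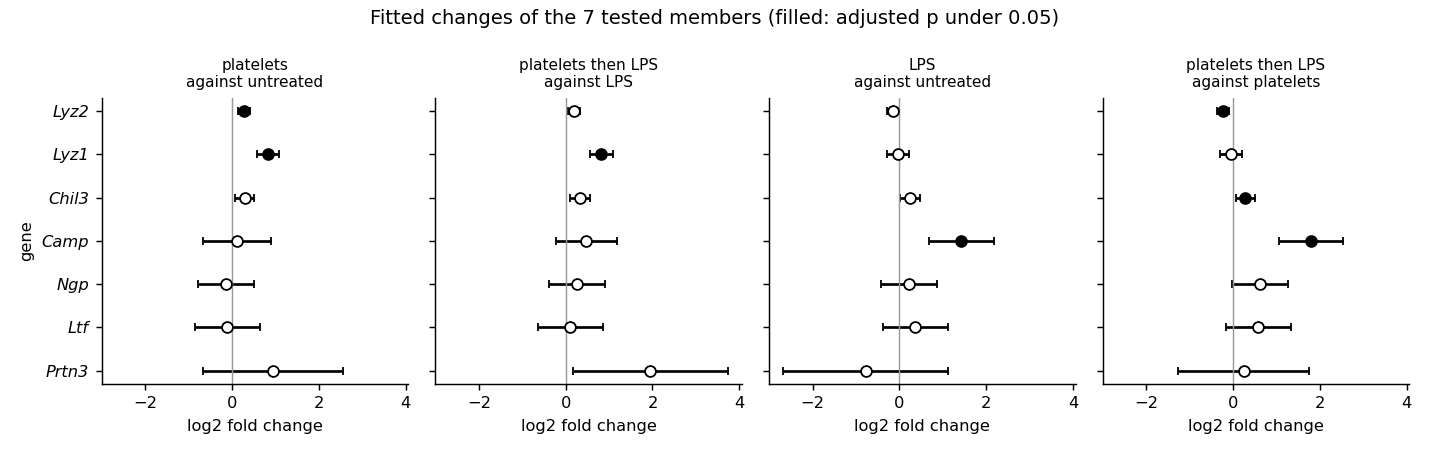
Fitted log2 fold changes of the 7 tested genes in 4 comparisons, with 95% intervals as bars. Filled points had an adjusted p under 0.05 by edgeR: *Lyz1* in both platelet comparisons, *Lyz2* after platelets and in platelets and LPS against platelets, *Camp* in both LPS comparisons and *Chil3* in platelets and LPS against platelets.

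The 4 azurophil genes had few reads, and much of what there was came from 1 library. *Mpo* had 0, 6 and 0 reads untreated, 0 in each platelet library, 3, 0 and 0 with LPS, and 115, 12 and 1 with platelets and LPS. *Elane* had 6, 1 and 0 reads untreated, 0, 2 and 2 after platelets, 0 in each LPS library, and 59, 0 and 0 with platelets and LPS. Replicate 1 of platelets and LPS held 83.9% of all *Mpo* reads and 84.3% of all *Elane* reads, while it held 9.5% of the reads of all genes.

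*Prtn3* had 12, 6 and 7 reads untreated, 12, 17 and 25 after platelets, 2, 10 and 0 with LPS, and 38, 7 and 7 with platelets and LPS. *Ctsg* had 2, 4 and 0 reads untreated, 5 in each platelet library, 3, 3 and 0 with LPS, and 19, 9 and 0 with platelets and LPS. The same library was highest for both, with 26.6% of all *Prtn3* reads and 34.5% of all *Ctsg* reads. All 4 azurophil genes thus had their highest read count in replicate 1 of platelets and LPS.

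*Prtn3* was the azurophil gene that reached the test, and it did not pass in any comparison. After platelets its log2 difference was 0.94 (95% interval −0.68 to 2.55), and in platelets and LPS against LPS it was 1.95 (interval 0.17 to 3.74, adjusted p = 0.208 by edgeR). *Prtn3* overlaps *Plppr3* on the opposite strand in GENCODE M21, and *Mpo* overlaps the antisense gene *Gm11505*. The strand setting of the counts was not given in the sources used here, and reads of such partners cannot be told apart.

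When no filter was applied, *Mpo* and *Elane* were called in platelets and LPS against LPS, with log2 5.13 (adjusted p = 6.93e-08 by edgeR) and 7.33 (2.12e-05). Both were also called in the interaction, at log2 9.16 (2.6e-05) and 8.24 (0.00243). Without replicate 1 of platelets and LPS, *Mpo* had log2 2.64 (adjusted p = 0.529 by edgeR) and *Elane* 0.00 (1) against LPS, and neither was called in the interaction (0.202 and 1). *Mpo* against platelets alone kept its call without that library (log2 5.93, adjusted p = 0.00696 by edgeR), with 12 and 1 reads against 0 in the platelet libraries. Fitted values of genes at 0 depend on the prior count and are no bound on the change.

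By CPM, 5 of the 12 progenitor markers were highest of their group in that library, 3 were lowest, 3 lay between and *Prss57* had no read. *Gfi1* had 217 reads there against 137 and 155 in the other 2 libraries, and *Flt3* had 58 against 26 and 36. *Fcnb* had 18 reads against 15 and 3, *Myb* 39 against 27 and 35, and *Cebpe* 5 against 2 and 3. *Kit* had 28 reads against 35 and 32, *Cd34* 94 against 95 and 89, and *Ms4a3* 4 against 7 and 0. The sum of the 12 markers was 742 CPM there and 733 to 795 CPM over the group, mostly from *Gstm1* and *Clec12a*. The part of progenitors in the azurophil reads was not tested.

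**Figure D4:**
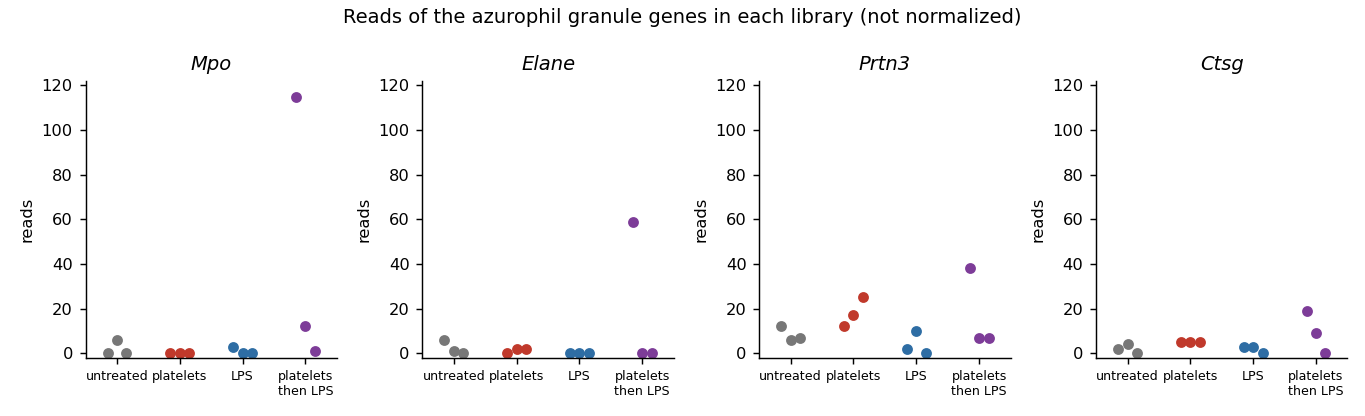
Reads of the 4 azurophil granule genes in each library, not normalized, on a common linear axis that starts just below 0. In replicate 1 of platelets and LPS the counts are 115 for *Mpo*, 59 for *Elane*, 38 for *Prtn3* and 19 for *Ctsg*, and the highest count in any other library is 25.

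Further genes of the granule system were taken from lists. The first list holds 20 genes that process, carry or inhibit azurophil proteins, of which 18 were tested. After platelets 5 of the 18 were higher and 0 lower by edgeR (7 higher and 1 lower at an unadjusted p under 0.05), with a list median of log2 0.15 against 0.00 over all genes tested. *Srgn*, the serglycin core that holds proteases in granules, rose 1.68-fold, from 49.9 ± 4.85 to 83.8 ± 17.6 CPM (SD, n = 3 each). *Slpi*, an inhibitor of elastase, rose 1.79-fold, *Serpinb6a*, another protease inhibitor, 1.45-fold, and *Cd63*, a membrane protein of azurophil granules, 1.47-fold. Platelet replicate 1 was the highest of its group for *Srgn* (104 CPM against 75.7 and 71.6) and *Serpinb6a* (136 against 103 and 98.6). It was also highest for *Cd63* (956 CPM against 676 and 635), but not for *Slpi* (94.6 against 73.1 and 96.8). Without platelet replicate 1, 9 of the 18 were higher, and without replicate 1 of platelets and LPS 4 were. In the main fit, 3.63% of all genes tested were higher and 2.86% lower.

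With LPS, 5 of the 18 were higher and 5 lower (list median log2 −0.06), and 7 were lower without platelet replicate 1. The shares of all genes tested were 27.7% higher and 23% lower. *Slpi* rose 23.8-fold, from 49.3 to 1175 CPM, and *Srgn* 7.31-fold. *Ctsc*, the protease that activates elastase, proteinase 3 and cathepsin G, rose 2.42-fold, from 766 to 1855 CPM. *Gusb*, a lysosomal glucuronidase, was 1.44-fold lower. In platelets and LPS against LPS 3 of the 18 were higher and 0 lower by edgeR (4 and 0 at an unadjusted p under 0.05), and without replicate 1 of platelets and LPS 1 was higher. Over all genes tested, 4.41% were higher and 2.87% lower there. The interaction was negative for *Srgn* (log2 −0.75, adjusted p = 0.0353 by edgeR) and *Slpi* (−0.91, 0.0343), and neither passed without replicate 1 of platelets and LPS. *Ctsc* and *Srgn* thus had many reads in libraries where *Elane*, *Prtn3* and *Ctsg* had at most 59 reads each. Bulk RNA does not show whether the same cells held them.

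Of 28 further genes of specific, gelatinase and secretory granules and of the neutrophil cytosol, 22 were tested. After platelets 4 were higher and 3 lower (list median log2 0.24), beside 3.63% and 2.86% of all genes tested. *Mmp8*, neutrophil collagenase, was 2.04-fold lower, from 342 ± 8.31 to 167 ± 21.1 CPM (SD, n = 3 each), and 1.90-fold lower in platelets and LPS against LPS. *Hp* (haptoglobin) rose 1.94-fold, *Mmp9* (gelatinase B) 1.97-fold and *Cd33* 2.68-fold after platelets. The collagenase thus moved opposite to the lysozyme genes.

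With LPS, 9 of the 22 were higher and 3 lower, beside 27.7% and 23% of all genes tested. *Mmp25* had 6 reads over the untreated libraries and 743 over the LPS libraries. It passed the filter on low counts through the LPS-treated groups, so any call of it with LPS is no support. The list median was log2 0.41, against 0.01 over all genes tested. *Hp* rose 64.8-fold, from 3.54 to 229 CPM. *Fpr1* and *Fpr2*, receptors for bacterial formyl peptides, rose 52.7-fold and 45.8-fold, and *Cybb*, a subunit of the NADPH oxidase, 19.5-fold. In platelets and LPS against platelets 10 were higher and 2 lower, beside 27.6% and 21.8% of all genes tested. Without platelet replicate 1 there were 10 higher and 4 lower of 23 tested. The interaction was negative for *Hp* (log2 −0.89, adjusted p = 0.0138 by edgeR) and *Mmp9* (−1.23, 0.0177).

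Transcription factors of granule genes formed the next list, with 15 of 17 tested. After platelets 1 was higher (*Gata2*) and 1 lower (*Runx1*), with adjusted p of 0.0499 and 0.0371 by edgeR, and neither was called without platelet replicate 1 or without replicate 1 of platelets and LPS. The shares of all genes tested were 3.63% higher and 2.86% lower. With LPS 7 were higher and 4 lower (list median log2 −0.06), beside 27.7% and 23% of all genes tested. *Cebpd* rose 9.68-fold, *Spi1*, which encodes PU.1, 3.59-fold, and *Irf8*, a factor of monocyte development, was 2.81-fold lower. *Gfi1*, a repressor needed for granulocyte maturation, had 1 read over the untreated libraries and 780 over the LPS libraries, a ratio of 955 after scaling (95% counting interval 171 to 37780). *Myb* had 13 and 83 reads there. Both passed the filter on low counts through the LPS-treated groups, so their places among the 7 are no support. *Cebpe*, with 43 and 7 reads, passed it through the groups without LPS, so its place among the 4 is no support either.

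With platelets and then LPS, 3 of the 15 factors were higher than with LPS alone and 1 was lower, or 4 and 3 at an unadjusted p under 0.05. Over all genes tested, 4.41% were higher and 2.87% lower by adjusted p. By adjusted p without platelet replicate 1, 3 factors were higher and 3 lower, and without replicate 1 of platelets and LPS 2 were higher and 1 lower. *Irf8* was 1.72-fold higher and *Cebpd* 1.42-fold lower. The interaction was positive for *Irf8* (log2 0.66, adjusted p = 0.0146 by edgeR).

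**Figure D5:**
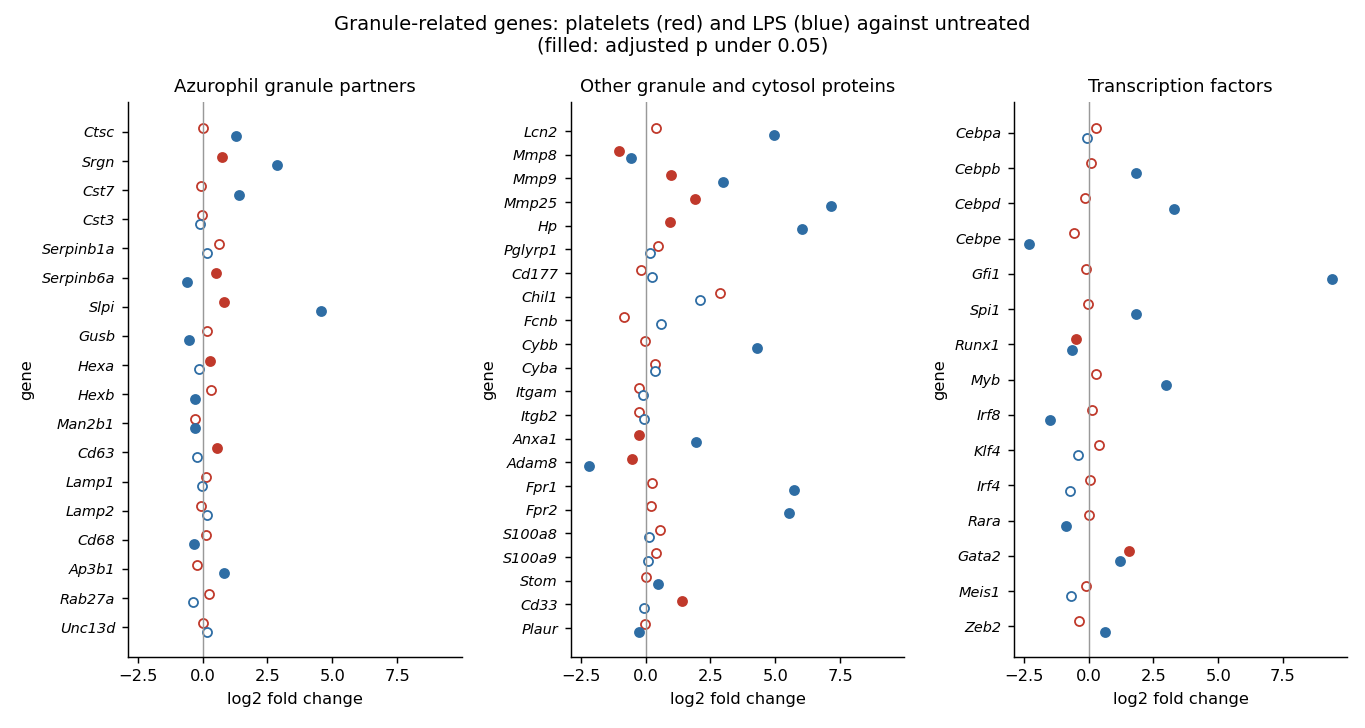
Fitted log2 fold changes of the tested genes of the 3 lists, for platelets (red) and LPS (blue) against untreated, with filled points for adjusted p under 0.05 by edgeR. Most blue points that are far from 0 lie to the right, among them *Slpi*, *Hp*, *Fpr1* and *Gfi1*, and most red points lie near 0, with *Mmp8* to the left.

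A last list held 18 relatives of the granule genes, of which 3 were tested. *Mcpt8*, a mast cell protease gene of basophils, was the 1 called after platelets and in platelets and LPS against LPS, higher in both (8.67-fold and 14.7-fold). It had 25 reads over the untreated and 8 over the LPS libraries, against 244 after platelets and 131 with platelets and LPS. The last group ran from 0.430 to 3.34 CPM. *Mcpt8* passed the filter on low counts through the platelet-exposed groups, so its calls are no support. The close relative of *Chil3*, *Chil4*, is 94.4% identical to it over the coding sequence and had at most 1 read in any library.

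The genes whose levels ran most like each member over the 12 libraries were found by Pearson's r of log2 CPM, among 7960 genes with at least 10 CPM. The libraries share their treatments, so these values are descriptions. *Lyz1* was closest to *Gng11* (r = 0.96), one of the platelet markers above, and *Ctss* (r = 0.95). *Lyz2* was closest to *Syngr1* and *Hilpda* (r = 0.95 each). *Chil3* was closest to *Tmed1* (r = 0.96) and *4930430E12Rik* (r = 0.93), and *Camp* to *Eif2b5* (r = 0.96) and *Pcx* (r = 0.95). *Ngp* ran with *Cc2d1a* (r = 0.88) and *Clcn3* (r = 0.84), *Ltf* with *Golga5* (r = 0.83) and *Ints14* (r = 0.81), and *Prtn3* with *Tpx2* (r = 0.90) and *Kif2c* (r = 0.89).

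Among the members, *Lyz1* and *Lyz2* had r = 0.78 over the 12 libraries. The specific granule genes had r = 0.70 for *Ngp* and *Camp*, 0.57 for *Ngp* and *Ltf*, and 0.56 for *Camp* and *Ltf*. *Camp* and *Lyz2*, which moved in opposite directions with LPS after platelets, had r = −0.45. These values also carry the low read counts of *Camp*, *Ltf* and *Ngp*.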

How the data were processed

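Per the labels' protocols, RNA was isolated with a column kit, amplified with SMARTer chemistry and sequenced from Nextera XT libraries. Tools named, without roles, in the submitters' processing notes are Salmon 1.5.2, featureCounts of Subread 2.0.1, STAR 2.7.9a and fastp 0.23.1. Each deposited file holds raw read counts, 1 whole number per gene. Neither build, annotation nor strand setting was given in the sources used here.

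Counts of all 12 libraries were fitted in R 4.3.3 with edgeR 4.0.16 (filterByExpr, TMM factors, quasi-likelihood test, 4 group means, 8 residual degrees of freedom). All tests were two-sided, with Benjamini-Hochberg adjustment over 13151 genes and a threshold of 0.05. CPM uses the TMM-scaled library size. Fold changes, standard errors and 95% intervals come from the fit. Intervals and floors from counts cover counting error only, since amplified reads without molecular identifiers are not independent molecules. Replicate numbers were not used to pair the libraries in this fit.

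The alternatives tried were upper-quartile factors, library size alone, DESeq2 size factors, no filter, a stricter filter (1 CPM and 10 counts in 3 libraries), DESeq2 1.42.0, voom of limma 3.58.1, a replicate block, only the 2 groups compared, summed lysozyme and Chil3 and Chil4 reads, and leaving out each library. The lysozyme ratio test, list counts without a library, and the fit with no filter and without a library were chosen after seeing the data. The fit was tested on simulated counts.

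The members and lists were chosen with earlier results of these data known. All members are named. From each list up to 4 genes called in a comparison, by smallest p, and any single gene of opposite direction may be named, and for each tested member the 2 genes with the highest r. Marker genes are named to describe their lists, and some genes are named because they passed the filter through the groups where they are high. Sequences come from GENCODE M21 and RefSeq (GRCm38.p6), where all 10 members were matched by symbol.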

Additional observations from a re-analysis of the deposited data

How the results depend on the processing

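Low read counts limit the azurophil and specific granule genes. *Lyz1* was called higher in both platelet comparisons and *Camp* in both LPS comparisons under every scaling, filter and tool and without any single library, except that the summed lysozyme reads lost the call with LPS present. After platelets, 1 gene was higher with only the 2 groups compared and with summed reads, against 2, and 1 to 2 without a library. With LPS, 1 gene was lower with DESeq2 size factors, upper-quartile factors, DESeq2 or only the 2 groups, and 2 with library size alone, against 0, and 0 to 1 without a library. In platelets and LPS against LPS, 3 were higher without a filter, 2 with DESeq2 or only the 2 groups and 0 with summed reads, against 1, and 1 to 4 without a library. In platelets and LPS against platelets, 1 was higher with DESeq2 size factors, upper-quartile factors, library size alone or only the 2 groups and 4 without a filter, against 2, and 1 to 4 without a library. There 2 were lower with upper-quartile factors or library size alone, against 1. In the interaction 2 were higher without a filter. Over all genes, 1291 (DESeq2) and 419 (only the 2 groups) were called after platelets against 854, and 410 to 1027 without a library. In platelets and LPS against LPS, 557 to 1640 were called without a library, against 957. In the interaction 371 (no filter) and 403 (DESeq2) were called against 208, and 87 to 361 without a library. The *Chil3* call in platelets and LPS against platelets was also lost with DESeq2 size factors (adjusted p = 0.0693 by edgeR), no filter (0.164) and only the 2 groups (0.0812). The cause was not tested.

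Same-numbered libraries of different groups deviated together with r of −0.23 to 0.14, with 1 of 18 pairs over 0.1. Among differently numbered pairs, 5 of 36 were over 0.1. These values gave no sign that the numbers pair the libraries, but they cannot show that the libraries were unpaired. With the replicate block, 118 genes were called in the interaction against 208, and no call of a member changed.

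Signs of log2 values turned mostly in results that were not called. With library size alone, LPS gave −0.16 for *Ngp*, −0.0235 for *Ltf* and −0.13 for *Chil3*. In platelets and LPS against platelets it gave −0.12 for *Prtn3* (−0.11 with voom) and −0.0733 for *Chil3*, which was called in the main analysis. Interactions turned to −0.00157 for *Chil3* with upper-quartile factors and 0.00828 for *Lyz1* with library size alone. Leaving out a library gave, after platelets, −0.37 to 0.11 for *Ngp*, −0.22 to 0.45 for *Camp* and −0.33 to 0.15 for *Ltf*. With LPS it gave −0.0761 to 0.62 for *Ltf* and −0.20 to 0.10 for *Lyz1*, and in platelets and LPS −0.10 to 0.56 for *Ltf* against LPS and −0.95 to 0.61 for *Prtn3* against platelets. Interactions then ranged from −0.17 to 2.88 for *Prtn3*, −0.0373 to 0.66 for *Ltf*, −0.14 to 0.16 for *Lyz1* and −0.0288 to 0.10 for *Chil3*. With other scalings the share of calls that were higher moved from 56% to 64.5 and 65.2% after platelets, from 54.6% to 37.9 and 26.3% with LPS, and from 55.8% to 35.4 and 27.6% with LPS after platelets.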
